A study of Mus musculus with 2 samples.

Results

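Interferon-stimulated genes are the genes that cells switch on when an interferon, a secreted antiviral signal, binds its receptor. A set of 42 of them, matched by gene symbol, is described here, and each symbol had a single row among the 25865 genes with a symbol. The cells were mouse mammary cells of adult females at 18.5 days of pregnancy, sorted as Ter119-CD31-CD45- to remove red, endothelial and immune cells. There was 1 library from females of strain EhfKO, which lack the epithelial ETS-family transcription factor Ehf, and 1 from wild type females. Each library pooled the thoracic and inguinal glands of 2 females and was made with 10x Chromium 3' chemistry (V3). The labels do not say which part of the Ehf gene was deleted. Paired values below are in the order knockout, wild type.

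Type I interferons bind a receptor of the chains Ifnar1 and Ifnar2, whose kinases activate STAT proteins, Stat2 among them. These join Irf9, enter the nucleus and bind a short DNA element, the interferon-stimulated response element, in the promoters of target genes. The products sense viral RNA, bind or degrade it, tag proteins with ISG15 or block viral entry and release, and Usp18 among them dampens the signal again. Interferon gamma acts on an overlapping set through another element, the gamma-activated site.

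The response element can be read directly in the promoters of many members, and the sequences below are printed to show it in members of different roles and levels. RefSeq promoter windows on GRCm38.p6, from 250 bases before to 50 bases after an annotated start of a gene, were found for 32 of the 42 members. Usp18, Oas2, Ifi27, Dhx58, Parp9, Parp14, Mx1, Mx2, Zbp1 and Rtp4 had no entry. The response element was searched as GAAA, any 2 bases and GAAA, on both strands, so that it also reads TTTC, any 2 bases and TTTC. It was found in the windows of 16 of 32 members (50%) and of 1079 of 27025 genes (3.99%). The gamma-activated site, TTC, any 3 bases and GAA, was found in those of 8 members (25%) and of 2582 genes (9.55%). In the lines below, capitals mark the response element. Each sequence runs 5′ to 3′ on the strand of its gene and ends before the annotated start on which its window is set. This need not be the outer end of the gene. The annotated spans of Ifit3 and Ifit3b begin at 34583119 and 34607530, upstream of their stretches. That of Oas1a, on the minus strand, begins at 120907544, within its stretch.
Ifit1, chr19:34640760-34640838, plus strand: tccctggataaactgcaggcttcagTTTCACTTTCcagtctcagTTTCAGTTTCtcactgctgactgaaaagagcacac
Ifit3, chr19:34583348-34583441, plus strand: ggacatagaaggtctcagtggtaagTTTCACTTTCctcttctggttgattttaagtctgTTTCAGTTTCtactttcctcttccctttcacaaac
Ifit3b, chr19:34607744-34607837, plus strand: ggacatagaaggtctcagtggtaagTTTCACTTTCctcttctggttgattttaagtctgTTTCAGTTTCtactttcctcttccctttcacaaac
Isg15, chr4:156200850-156200921, minus strand: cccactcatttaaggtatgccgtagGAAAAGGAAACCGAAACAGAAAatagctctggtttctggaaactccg
Rsad2, chr12:26456538-26456597, minus strand: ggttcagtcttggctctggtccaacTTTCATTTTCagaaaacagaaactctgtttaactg
Oas1a, chr5:120907526-120907570, minus strand: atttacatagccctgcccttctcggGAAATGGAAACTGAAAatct
Bst2, chr8:71537562-71537627, minus strand: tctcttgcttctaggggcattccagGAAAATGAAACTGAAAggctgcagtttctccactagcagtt
Gbp2, chr3:142620579-142620638, plus strand: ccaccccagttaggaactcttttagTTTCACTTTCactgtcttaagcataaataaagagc
Gbp7, chr3:142530258-142530317, plus strand: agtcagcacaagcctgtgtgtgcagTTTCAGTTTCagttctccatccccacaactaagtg
Ifit1, Ifit3 and Ifit3b each held 2 copies, and Isg15 held 3 that overlap, so that 1 GAAA serves 2 matches. The stretches of Ifit3 and Ifit3b were identical over all 94 bases, and these near-identical genes can share reads, so their separate counts are uncertain. Irf1 held no response element match in its window but a gamma-activated site, at positions -90 to -82 from its start.

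After filtering and removal of likely doublets, 6521 cells of the knockout library and 9055 of the wild type library remained, with medians of 3827 and 2458 UMIs per cell. A UMI tags a single captured RNA molecule, and a level is given as CPM, UMIs per 1000000 UMIs of the cell class. Clusters of cells were named from marker genes, with the milk genes and all interferon-related genes left out of the clustering, and were joined into 4 classes. Luminal secretory cells, the milk-making lineage and its progenitors, numbered 810 and 2550. Basal cells, the contractile outer layer, numbered 5498 and 6199, hormone-sensing cells 145 and 125, and non-epithelial cells 68 and 181. The non-epithelial cells were endothelial-, fibroblast-, myeloid- and pericyte-like cells that were present despite the sort. With 1 library per genotype there is no replicate check and no test: intervals are 95% and cover counting error only, and a difference between the libraries cannot be told apart from a difference between 2 pools of females. Ehf itself, read at its 3' end, gave 1063 UMIs (82.2 CPM) in knockout and 3335 UMIs (116 CPM) in wild type luminal secretory cells; a 3' tag need not lie in the deleted part and so does not check the labels.

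Ratios were taken between the summed UMIs of a class in both libraries, for genes with at least 50 UMIs over both, and set relative to the median of all such genes. This step mattered in luminal secretory cells, where milk protein genes held 10.6% and 39.4% of the UMIs. There the median gene had a log2 ratio of 0.87 in plain CPM, against -0.00 in basal cells. A knockout level after this step is called scaled CPM, and a gene is called higher or lower at 1.5-fold or more, a rule of size.

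In basal cells 31 of 34 measured interferon-stimulated genes had a ratio below 0, and the median of the 34 was -0.49, against 0 for all 12204 measured genes by construction. At 1.5-fold, 11 members were lower (32.4%), beside 6.56% of all measured genes. Only Zbp1 was higher, beside 6.08% of all genes. The counting interval lay below 0 for 27 members and above 0 for 2, Zbp1 and Ifitm3. The 8 members under 50 UMIs gave 77 and 104 UMIs, a summed log2 ratio of -1.13 (-1.58 to -0.69). Among all basal genes of 50 to 200 UMIs the median was -0.05 and 14.2% were lower. The 11 members in that range had a median of -1.03, with 7 lower. Among all basal genes of 200 to 1000 UMIs the median was -0.02 and 5.19% were lower. The 18 members in that range had a median of -0.46, with 4 lower. The 5 members above 1000 UMIs were all within 1.5-fold, and Ifitm3 and Gbp7 among them were above 0.

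**Figure D1:**
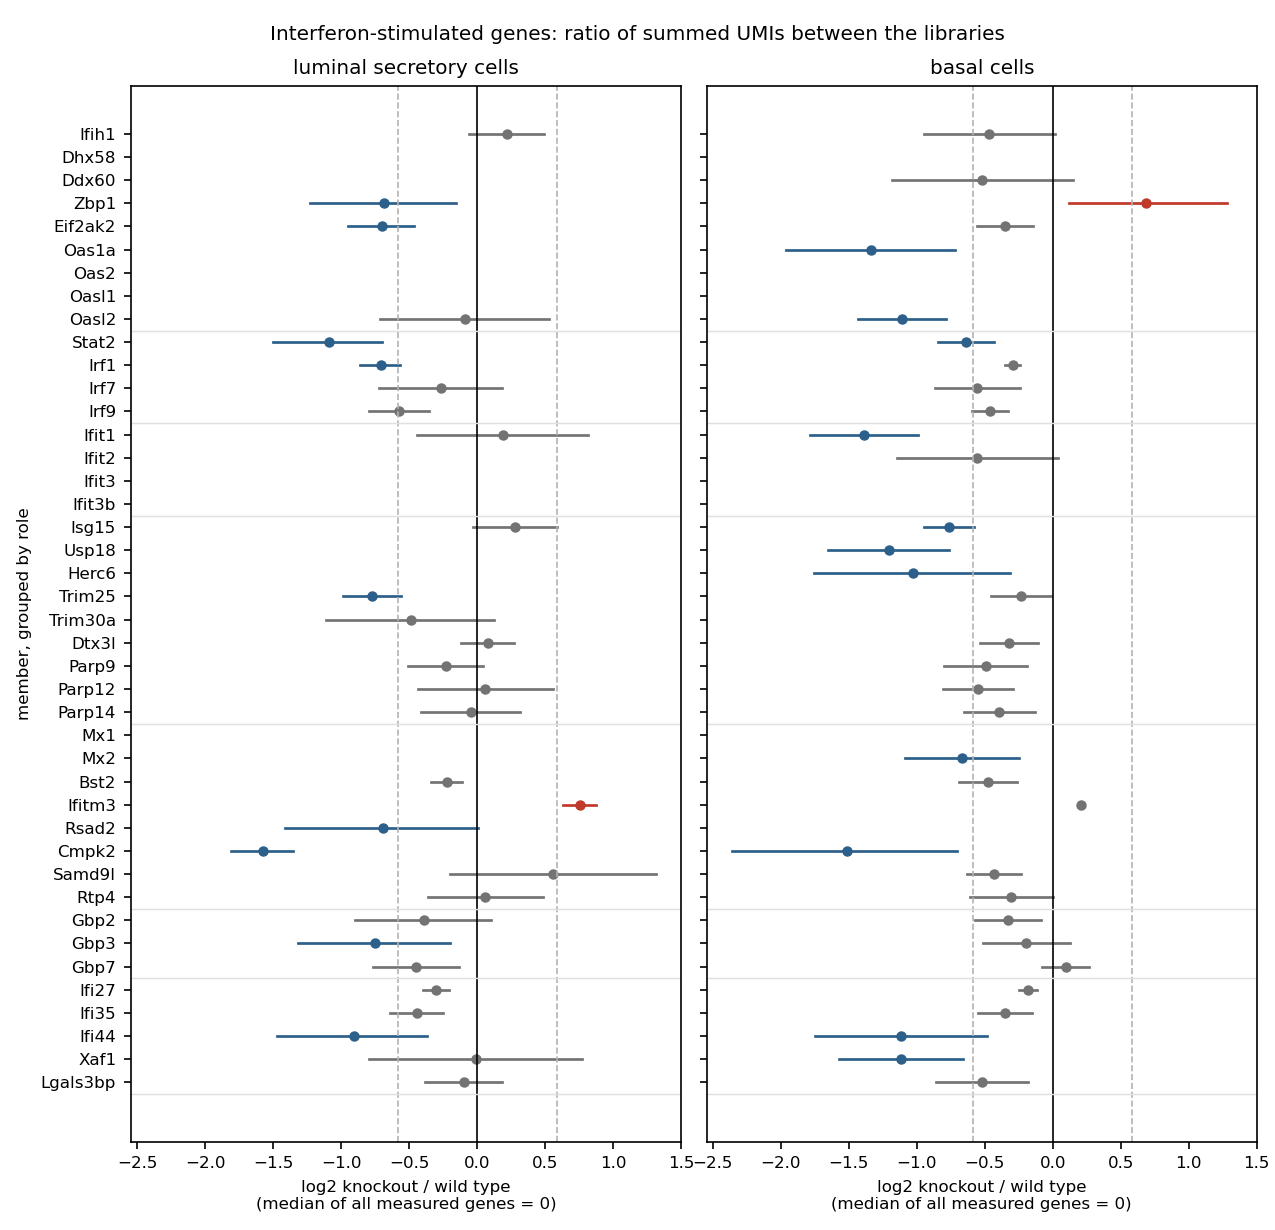
Log2 ratio of summed UMIs, knockout over wild type, for each measured member in luminal secretory cells (left) and basal cells (right), relative to the median of all measured genes; bars are 95% counting intervals, dashed lines 1.5-fold, blue lower, red higher, grey within 1.5-fold, and members under 50 UMIs have no point. In basal cells 31 of 34 points lie below 0, and in luminal secretory cells 22 of 30.

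Among the RNA-binding IFIT proteins, Ifit1 had 87 UMIs (3.67 CPM) in knockout and 140 UMIs (9.61 CPM) in wild type basal cells. This was 2.61-fold lower in the knockout library, a log2 ratio of -1.39 (-1.79 to -0.99). Ifit2 gave 53 and 48 UMIs and a ratio of -0.56 (-1.15 to 0.04), an interval that includes 0. Ifit3 (13 and 24 UMIs) and Ifit3b (2 and 2 UMIs) were too sparse to be measured.

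Isg15, the ubiquitin-like protein that is coupled to other proteins, stood at 20.1 CPM (477 UMIs) and 34.2 CPM (499 UMIs), a log2 ratio of -0.76 (-0.95 to -0.58). Usp18, which removes Isg15 from its targets, stood at 3.12 and 7.21 CPM, a ratio of -1.20 (-1.65 to -0.76). Herc6, the ligase that attaches Isg15 in the mouse, had only 31 and 39 UMIs and a ratio of -1.03 (-1.76 to -0.31). All 8 measured members of this group, which also holds the ADP-ribosylation and ubiquitin genes Dtx3l, Parp9, Parp12, Parp14 and Trim25, were below 0, with a median of -0.52. The same 5 genes ranged from -0.55 for Parp12 to -0.24 for Trim25, none of them 1.5-fold.

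The sensors and antiviral enzymes split. Oas1a and Oasl2 belong to a family whose active members make the oligoadenylates that switch on an RNA-cutting enzyme. Oas1a stood at 1.60 and 4.05 CPM, a ratio of -1.33 (-1.96 to -0.72), and Oasl2 at 6.02 and 13.0 CPM, a ratio of -1.11 (-1.43 to -0.79). Eif2ak2, the RNA-activated kinase that halts translation, had a ratio of -0.35 (-0.56 to -0.15). The RNA sensor Ifih1 (MDA5) was at -0.47 (-0.95 to 0.02) and Ddx60 at -0.52 (-1.19 to 0.15). Zbp1, a sensor of left-handed nucleic acids that can trigger cell death, went the other way, with 94 UMIs (3.96 CPM) and 36 UMIs (2.47 CPM), a ratio of 0.69 (0.12 to 1.28).

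All 4 transcription factors of the set were below 0 in basal cells. Stat2 stood at 17.4 and 27.2 CPM, a ratio of -0.64 (-0.84 to -0.44). Its partner Irf9 was within 1.5-fold at -0.46 (-0.59 to -0.33), as were Irf7, which amplifies interferon production, at -0.55 (-0.87 to -0.24) and Irf1 at -0.30 (-0.35 to -0.24). Irf1, which interferon gamma also induces, was among the most abundant members, with 5844 and 4418 UMIs.

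Of the restriction factors, Cmpk2, a mitochondrial nucleotide kinase whose gene neighbours Rsad2, had 21 and 37 UMIs and a ratio of -1.52 (-2.36 to -0.71). Mx2, a gene of the dynamin-like GTPase family, had 99 and 97 UMIs and a ratio of -0.67 (-1.09 to -0.25). It is annotated as a transcribed pseudogene on this genome build. Rsad2 itself, the antiviral enzyme viperin, was under the minimum, with 12 and 32 UMIs. Samd9l was at -0.43 (-0.63 to -0.24) and Bst2, the tetherin that holds budding virus, at -0.48 (-0.69 to -0.26). Ifitm3, a membrane protein that blocks viral entry, was the exception in level and direction. It alone held 79.0% of all member UMIs in knockout and 71.9% in wild type basal cells, 69104 and 36819 UMIs, with a ratio of 0.21 (0.19 to 0.23). With Ifitm3 in the sum, the ratio of the summed UMIs of all 42 members was 0.07 (0.06 to 0.09), while that of 38 members without the 4 most abundant over all cells, Ifitm3, Irf1, Ifi27 and Bst2, was -0.47 (-0.52 to -0.42). Sums below are of these 38.

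The guanylate binding proteins had the group median nearest to 0, at -0.20. Gbp7 stood at 0.10 (-0.08 to 0.27), Gbp3 at -0.20 (-0.52 to 0.13) and Gbp2 at -0.33 (-0.57 to -0.09). Among the remaining members Xaf1, a gene linked to cell death, and Ifi44 both had a ratio of -1.11, with intervals of -1.58 to -0.66 and -1.75 to -0.49. Ifi35 was at -0.35 (-0.55 to -0.16), and Ifi27, a small mitochondrial protein with 4482 and 3131 UMIs, at -0.18 (-0.25 to -0.12). Lgals3bp was at -0.52 (-0.86 to -0.18), and Rtp4, a chaperone of receptors, at -0.31 (-0.61 to -0.00).

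Different clusters held most basal cells of each library, so the comparison was repeated within them. Cluster 1 had 2443 knockout and 155 wild type cells and cluster 4 had 1175 and 107, whereas cluster 0 had 120 and 2661 and cluster 2 had 419 and 1910. The summed ratio was below 0 within each of the 10 basal clusters, from -0.99 to -0.13, and its counting interval lay below 0 in 7 of them. Ifitm3 was below 0 in 1 of the 10.

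Other features of the basal cells also differed between the libraries. Median UMIs per cell were 3618 and 2015; with every cell thinned to 2000 UMIs, the member median was -0.52. Median mitochondrial shares were 5.99% and 5.82% of UMIs. Milk protein genes held 0.200% and 1.67% of basal UMIs, and after subtraction of a luminal profile scaled to that signal the median was -0.50. Myeloid markers, 10 genes in all, summed to 59.7 and 27.7 CPM, with 10 and 9 detected and Ptprc at 0 in the wild type library, and the 9 endothelial markers, all detected, to 4.26 and 3.84 CPM. Of 14 dissociation-response genes, 11 were below 0, with a median of -0.15, and 3 were 1.5-fold lower, beside 6.56% of all genes. The part of these 14 genes in the result was not tested.

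The luminal secretory cells gave a direction that depended on the scaling. Relative to all genes, 22 of 30 measured members were below 0, with a median of -0.28, and 9 were lower by 1.5-fold (30%) beside 18.2% of the 11130 measured genes. In plain CPM the median was 0.58, with 15 members higher (50%) beside 67.9% of all genes and 1 lower beside 4.55%. In CPM outside the milk protein genes it was 0.02, with 2 members higher beside 30.4% of all genes and 3 lower (10%) beside 10.7%. Relative to all genes, 1 member, Ifitm3, was higher, beside 15% of all genes. The other 12 members had fewer than 50 UMIs, 151 and 189 in sum, with a ratio of -0.04 (-0.36 to 0.28). The 14 dissociation-response genes had a median of -0.49 in these cells, with 12 below 0 and 4 lower, beside 18.2% of all genes. The part of these 14 genes in the result was not tested.

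**Figure D2:**
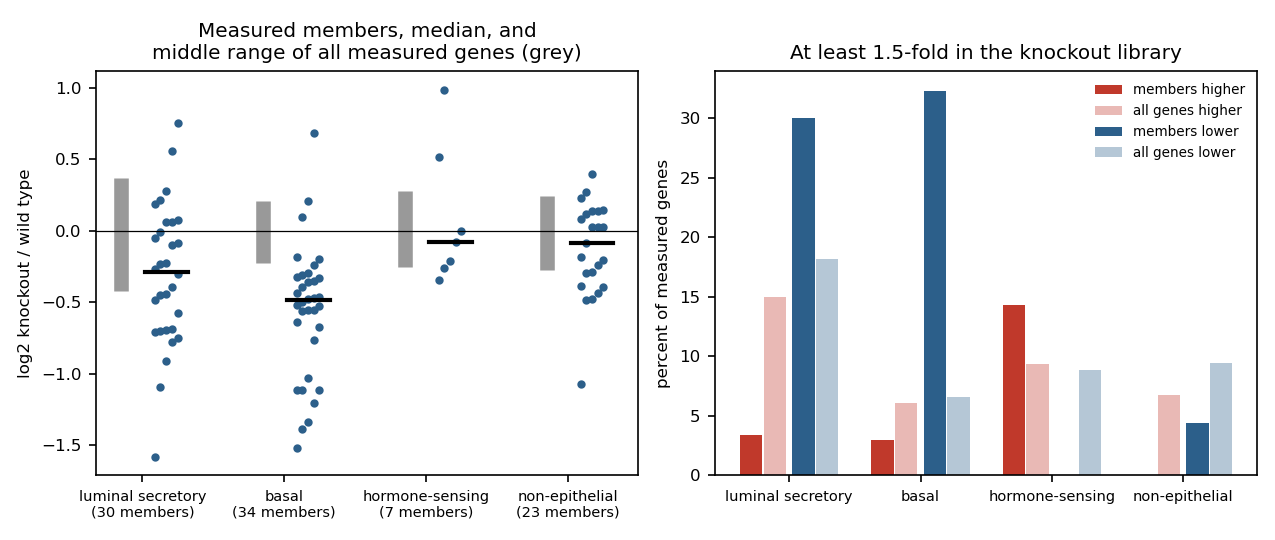
Left, log2 ratio relative to all measured genes for each measured member (points) with their median (bar), beside the range from the lower to the upper quartile of all measured genes (grey), in 4 cell classes. Right, percent of measured members and of all measured genes at least 1.5-fold higher or lower in the knockout library; 32.4% of members and 6.56% of genes were lower in basal cells.

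Cmpk2 was the 1 member at least 1.5-fold lower in luminal secretory cells on all 3 scales. It gave 200 UMIs in the knockout library, 15.5 CPM or 8.48 scaled CPM, and 727 UMIs in the wild type library, 25.3 CPM. Its ratio was -1.58 (-1.81 to -1.35) relative to all genes, -1.27 outside milk genes and -0.71 in plain CPM. Stat2 gave 74 and 192 UMIs, 3.14 scaled CPM against 6.68 CPM, and ratios of -1.09 (-1.50 to -0.70), -0.79 and -0.22 on the same scales.

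Trim25, a ubiquitin ligase of RNA sensing, had a ratio of -0.77 (-0.99 to -0.56), Irf1 of -0.71 (-0.86 to -0.56) and Eif2ak2 of -0.70 (-0.95 to -0.46). Gbp3 was at -0.75 (-1.32 to -0.20), Zbp1 at -0.68 (-1.23 to -0.16) and Ifi44 at -0.91 (-1.47 to -0.37). In plain CPM, Trim25, Irf1, Eif2ak2, Gbp3 and Zbp1 turned to between 0.09 and 0.18, and Ifi44 stood at -0.04. Rsad2 was past 1.5-fold at -0.69, but its interval, -1.41 to 0.01, included 0.

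Of the other abundant luminal members, Ifi27 gave 1488 and 2234 UMIs and a ratio of -0.30 (-0.40 to -0.21). Bst2 gave 1054 and 1498 UMIs and a ratio of -0.22 (-0.34 to -0.11), and Ifi35 one of -0.44 (-0.64 to -0.25). In plain CPM all of these were higher in the knockout library: Ifi27 at 115 and 77.8, Bst2 at 81.5 and 52.2 and Ifi35 at 27.6 and 20.6. Outside milk genes Ifi27 stood at 129 and 128 CPM, Bst2 at 91.1 and 86.1 and Ifi35 at 30.9 and 34.0. Relative to all genes, Dtx3l was at 0.08 (-0.12 to 0.27). Isg15 gave 177 and 178 UMIs, a ratio of 0.28 (-0.03 to 0.58), and Ifit1 gave 44 and 47 UMIs, a ratio of 0.19 (-0.44 to 0.81). Both intervals include 0, and the difference between the 2 classes was not tested. Of 28 members measured in both classes, 18 were below 0 in both, and 3 were 1.5-fold lower in both, Cmpk2, Ifi44 and Stat2. The share of all genes with such an overlap was not counted, and the luminal ratios here are relative to all genes. In plain CPM 3 of the 30 measured luminal members were below 0, and only 1, Cmpk2, was 1.5-fold lower.

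Ifitm3 was higher in knockout luminal secretory cells, with 1305 UMIs (101 CPM) against 941 UMIs (32.8 CPM) and a ratio of 0.76 (0.63 to 0.88). Its level in basal cells was 28.9-fold higher than in luminal secretory cells in the knockout library and 77.1-fold higher in the wild type library. Basal marker genes in luminal secretory cells summed to 760 and 434 CPM. A basal profile scaled to them would by itself give 71.1 and 26.8 CPM of Ifitm3 in these cells, and after its subtraction the ratio was 1.46. With likely doublets kept the ratio was 0.28.

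Within luminal clusters the summed ratio of the 38 members was not of one sign. It was -0.71 (-0.82 to -0.59) in progenitor-like cluster 6 (459 knockout and 356 wild type cells) and -0.42 (-0.52 to -0.32) in cluster 7 (282 and 383 cells), whose leading genes are those of dividing cells. In alveolar-like cluster 3 it was 0.59 (0.40 to 0.77), with only 69 knockout cells against 1811. Clusters 3 and 7 thus went opposite ways, and cluster 3 held most wild type but few knockout luminal cells.

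The milk share of a cell gave another view of the same class. In the wild type library the 38 members stood at 673 CPM outside milk genes (590 to 764) in cells with a milk share below 5%. They stood at 482 (437 to 532) from 5% to 15%, 386 (370 to 404) from 15% to 35% and 291 (281 to 301) above 35%. The level was thus lower in each wild type bin of higher milk share. Over the same 4 bins the myeloid markers summed to 38.2, 20.3, 6.97 and 4.63 CPM and the basal markers to 1672, 572, 583 and 351 CPM, and the share of cells in cluster 6 ran from 90.1% to 0.392%. Their part in the result was not tested. In the knockout library the same bins gave 309 (292 to 326), 292 (277 to 306) and 341 (315 to 368), with no such order, and its 23 cells above 35% were too few to describe.

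**Figure D3:**
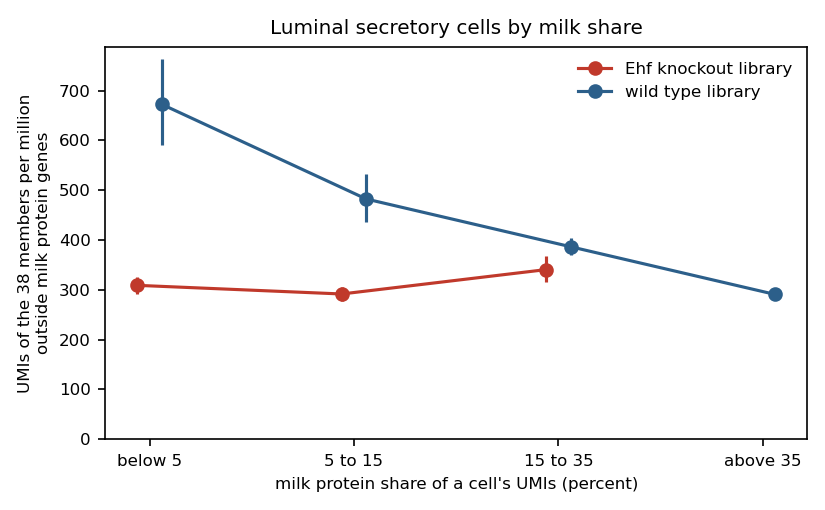
Summed level of the 38 members in luminal secretory cells, in CPM outside milk protein genes, by the milk protein share of the cell; bars are 95% counting intervals, and a bin with 23 knockout cells is not drawn. The wild type points run from 673 down to 291, and the knockout points lie between 292 and 341.

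The libraries differed most below a 5% milk share, where the members' summed log2 ratio was -1.12 outside milk genes and the median of all genes 0.14. From 15% to 35% it was -0.18, beside 0.02 for all genes. The wild type bin below 5% was small and shallow, with 81 cells and a median of 2943 UMIs, against 368 cells and 7684 UMIs in the knockout bin. Of these cells 65.8% and 90.1% lay in cluster 6, basal markers summed to 782 and 1672 CPM and myeloid markers to 13.5 and 38.2 CPM. Their part in the result was not tested.

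Single members did not follow one course over the bins. Ifitm3 stood at 146 and 270 CPM outside milk genes below a 5% milk share, a log2 ratio of -0.89 (-1.20 to -0.56), and at 98.4 and 151 CPM from 5% to 15%, a ratio of -0.62 (-0.90 to -0.33). From 15% to 35% it turned to 85.0 and 63.4 CPM, a ratio of 0.42 (0.14 to 0.70). Its higher luminal level in the knockout library was thus not found at low milk shares. Cmpk2, lower over the class as a whole, stood at 18.9 and 7.15 CPM from 5% to 15%, with only 6 wild type UMIs and a ratio of 1.40 (0.23 to 2.88). From 15% to 35% it stood at 25.2 and 38.1 CPM, a ratio of -0.60 (-1.08 to -0.14). Parp14, Parp9, Irf9, Lgals3bp and Dtx3l had intervals below 0 below a 5% milk share, with ratios from -1.77 to -0.72, and none of them from 15% to 35%. Below a 5% milk share Gbp7, Bst2, Ifih1 and Ifi27 were above 0, from 0.04 to 0.47, with intervals that include 0.

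Hormone-sensing cells, which carry the estrogen and progesterone receptors, were few, and 7 members were measured. None was lower by 1.5-fold, beside 8.85% of all genes. Bst2 was higher, beside 9.38% of all genes, with 65 UMIs (58.5 CPM) and 18 UMIs (29.2 CPM) and a ratio of 0.99 (0.22 to 1.83). Ifitm3 was at 0.52 (0.16 to 0.89) and Stat2 at -0.08 (-0.77 to 0.63). Ifi27, Irf9, Ifi35 and Lgals3bp, a secreted glycoprotein, lay between -0.35 and -0.00. The 35 members under the minimum gave 254 and 204 UMIs in sum, a ratio of -0.55 (-0.82 to -0.28). No UMI of Ifit2, Ifit3, Ifit3b or Rsad2 was seen in these cells in either library, which allows up to 2.70 and 4.87 CPM.

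In non-epithelial cells 23 members were measured, with a median of -0.09, 12 below 0 and 11 above. None was higher, beside 6.73% of all genes, and 1 was lower, beside 9.39%. That member was Oasl2, with 13 and 48 UMIs and a ratio of -1.07 (-2.08 to -0.16). Isg15 (56 and 89 UMIs) had a ratio of 0.15 (-0.36 to 0.65), Ifit1 (37 and 64 UMIs) of 0.03 (-0.60 to 0.63) and Rsad2 (41 and 85 UMIs) of -0.24 (-0.81 to 0.32), all with wide intervals that include 0. Ifitm3 (0.14), Irf1 (0.23), Bst2 (-0.18), Lgals3bp (-0.20), Ifi27 (0.08) and Gbp7 (0.03) were likewise within 1.5-fold.

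The members were most abundant outside the epithelium. In both libraries 37 of the 42 had their highest CPM in non-epithelial cells, and 32 were there at least 2-fold above basal cells. The share of all genes with such a pattern was not counted, so these counts do not set the members apart from other genes. The 38 members summed to 1794 CPM in knockout and 1912 CPM in wild type non-epithelial cells. They summed to 322 and 448 CPM in basal, 371 and 495 CPM in hormone-sensing and 277 and 204 CPM in luminal secretory cells. Outside milk genes the luminal secretory levels were 310 and 337 CPM, so the order of the libraries turned. Isg15, for example, stood at 112 and 97.9 CPM in non-epithelial cells. Only Ifitm3 and Ifi27 were highest in basal cells in both libraries, Ifitm3 at 2911 and 2527 CPM.

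**Figure D4:**
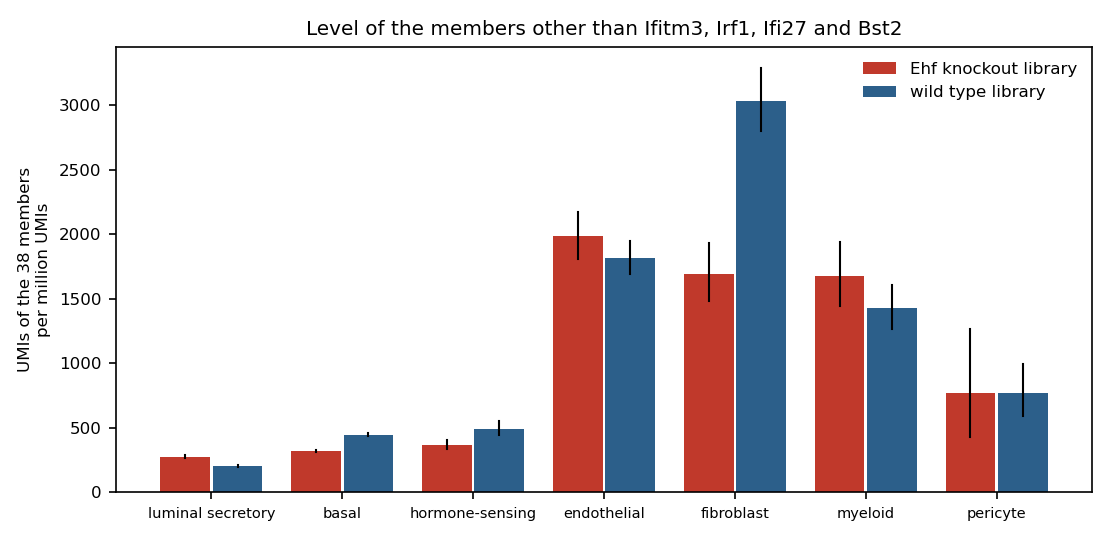
Summed level of the 38 members, in CPM, in 3 epithelial classes and 4 non-epithelial types of each library; bars are 95% Poisson intervals on the UMIs. The fibroblast-like cells of the wild type library stand highest at 3037, and the 3 epithelial classes lie between 204 and 495. Luminal secretory levels are over all UMIs, milk genes included, and outside milk genes they were 310 and 337.

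Among the non-epithelial types, endothelial-like cells (24 and 63 cells) summed to 1988 (1812 to 2176) and 1815 (1690 to 1946) CPM. Fibroblast-like cells (23 and 52) summed to 1696 (1483 to 1931) and 3037 (2801 to 3287) CPM, the widest gap among the 4 types, with Ifit1 at 14 and 43 UMIs and Irf7 at 14 and 39 UMIs. Myeloid-like cells (15 and 40) summed to 1680 (1447 to 1940) and 1427 (1265 to 1604) CPM. Pericyte-like cells (6 and 26) were lowest, at 769 (431 to 1269) and 771 (589 to 993) CPM.

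Lgals3bp gave the most UMIs of the 38 members in fibroblast-like (64 and 113 UMIs), myeloid-like (59 and 114 UMIs) and pericyte-like cells (4 and 12 UMIs) of both libraries. It also led in wild type endothelial-like cells, with 73 UMIs, while Isg15 led in those of the knockout library. Rsad2 gave 33 and 67 UMIs in endothelial-like cells, more than in all other cells of the class together.

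Within the epithelium the classes had different members high. In both libraries 12 members were at least 2-fold higher in basal than in luminal secretory cells, and 3 at least 2-fold lower, with counting intervals that leave out 0. Outside milk genes these were 9 and 4: Irf9, Parp12 and Gbp3 were no longer among the former, and Ifih1 joined the latter. How many of all genes pass the same rule was not counted, so the counts are not a trait of the members. In CPM over all UMIs the basal-high members were Ifit2, Usp18, Stat2, Irf1, Irf9, Parp12, Mx2, Gbp2, Gbp3, Gbp7, Ifitm3 and Samd9l. Samd9l stood at 19.3 and 26.2 CPM in basal and at 2.71 and 1.01 CPM in luminal secretory cells. The luminal-high members were Bst2, Trim30a and Cmpk2. Bst2 stood at 81.5 and 52.2 CPM in luminal secretory and at 16.7 and 23.3 CPM in basal cells, and Cmpk2 at 15.5 and 25.3 against 0.885 and 2.54 CPM.

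The basal and luminal levels of Ifit1 and Isg15 lay closer together in the knockout library. Ifit1 was 1.08-fold higher in basal than in luminal secretory cells of the knockout library and 5.87-fold higher in those of the wild type, a log2 ratio outside milk genes of -0.05 and 1.86. For Isg15 the folds were 1.47 and 5.53, with 0.40 and 1.77 outside milk genes. For the 38 members together they were 1.16 and 2.20, with 0.06 and 0.44 outside milk genes.

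Most cells showed few members. With cells thinned to 2000 UMIs, 5286 knockout and 3155 wild type basal cells remained, and 212 and 3044 shallower ones were left out. No UMI of the 38 members was found in 58.6% (57.3% to 59.9%) and 48.3% (46.6% to 50.1%) of basal cells. A cell held 0.625 and 0.928 member UMIs on average, with a variance over mean of 1.68 and 2.47.

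A small group of basal cells held many members at once. At least 5 of the 38 were seen in 22 of 5286 knockout cells, 0.416% (0.261% to 0.629%), and in 51 of 3155 wild type cells, 1.62% (1.21% to 2.12%). These cells held 5.63% and 14.8% of the members' UMIs, and the richest held 12 and 15 of the 38. Isg15 and Ifit1 gave the most UMIs in them in both libraries. They were found in 8 of 10 basal clusters in each library. Their median depth before thinning, 3774 and 2543 UMIs, was close to the 3664.5 and 2640.5 UMIs of the other cells. The other cells still averaged 0.592 and 0.804 member UMIs, so the knockout level was lower among them too. Thinned to 1000 UMIs, with no cell left out, 0.127% and 0.371% of basal cells held 5 or more members. Without thinning the order turned, 3.78% and 2.40%, at median depths of 3618 and 2015 UMIs.

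**Figure D5:**
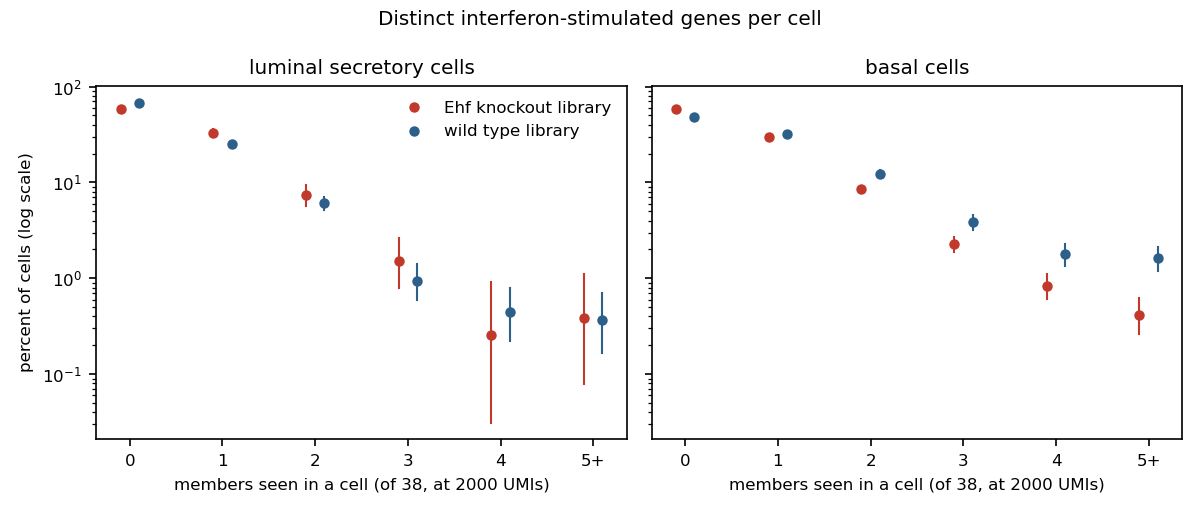
Percent of cells (log axis) in which 0 to 4, or 5 and more, of the 38 members had a UMI, after thinning each cell to 2000 UMIs; bars are exact 95% binomial intervals. In basal cells 0.416% of knockout and 1.62% of wild type cells had 5 or more, and in luminal secretory cells 0.383% and 0.367%. The 2000 UMIs include milk protein genes, which held 10.6% and 39.4% of the UMIs of luminal secretory cells.

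Members were seen in the same cells. Of basal cells with a UMI of Ifit1, Ifit2, Ifit3 or Ifit3b, 13 of 55 and 30 of 78 also had an Isg15 UMI, 23.6% (13.2% to 37.0%) and 38.5% (27.7% to 50.2%). Of cells without one, 3.27% and 4.97% did. Usp18 was seen in 12.7% and 16.7% of the former and in 0.344% and 1.01% of the latter. Ifitm3 showed no such contrast, since 98.9% and 97.7% of basal cells had a UMI of it, and Irf1 was seen in 45.5% and 47.4% of cells with an IFIT UMI and in 35.8% and 42.8% without.

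Free RNA can add single UMIs to any droplet, and Csn2, a casein gene of milk-making cells, had a UMI in 67.3% and 99.8% of basal cells at this depth. Single UMIs of a member in a cell are therefore no proof that it expressed the gene. A subtracted luminal profile would account for 3.89 of 322 CPM of the 38 members in knockout and 8.29 of 448 CPM in wild type basal cells.

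In luminal secretory cells at 2000 UMIs, 783 knockout and 2451 wild type cells held 0.572 and 0.460 UMIs of the 38 members on average. The 2000 UMIs include milk protein genes, which held 10.6% and 39.4% of the UMIs of this class. Fewer UMIs were thus left for other genes in the wild type cells, and the values here are not scaled for this. Relative to all genes, the summed ratio of the 38 members in the class was -0.42 (-0.48 to -0.36). At least 5 members were seen in 3 and 9 of them, 0.383% (0.0791% to 1.12%) and 0.367% (0.168% to 0.696%). Cmpk2 was seen in 3.45% and 5.06% of these cells, and Ifitm3 in 16.5% and 5.88%. Variance over mean was 1.26 and 1.62.

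Upstream of the members, the interferon genes themselves were almost unseen. Of 15 interferon genes, 11 had no UMI in basal and 13 none in luminal secretory cells of either library, and none reached 50 UMIs in any class. This bears only on what these libraries captured.

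Of the 6 receptor chains none was called in basal cells, beside 6.56% lower and 6.08% higher among all genes. Their median was -0.11. Ifnar2 stood at 38.6 and 41.0 CPM (ratio -0.08), Ifnar1 at 12.8 and 14.8 CPM (-0.21), and the interferon gamma chains Ifngr1 and Ifngr2 at 0.07 and 0.46. Among luminal secretory cells 1 of 6 was lower, beside 18.2% of all genes, and the median was -0.15. That chain was Ifngr1, at -0.70 (-0.89 to -0.51). The direction of Ifngr1 turned with the scaling, since its plain levels were 26.0 and 23.2 CPM.

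Among the kinases and STAT proteins of the pathway, Jak1 stood at 133 and 115 CPM in basal cells, a ratio of 0.21, and Stat3 (0.14) and Jak2 (0.22) were likewise above 0 and within 1.5-fold. In luminal secretory cells Stat3 was at -0.23 and Jak1 at -0.32. Both directions turned with the scaling, since the plain levels were 224 and 144 CPM for Stat3 and 83.4 and 57.2 CPM for Jak1.

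Of 14 sensing and adaptor genes upstream of interferon, 10 were measured in basal cells and none was called. There 6.56% of all genes were lower and 6.08% higher. Ddx58, the RNA sensor RIG-I, was at -0.48 (-0.68 to -0.28), Irf3 at -0.40, Tbk1 at -0.17 and the adaptor Myd88 at 0.30. Of the 11 measured in luminal secretory cells, 4 were lower and 1 higher, beside 18.2% and 15% of all genes. The receptor of double-stranded RNA Tlr3 stood there at 122 and 487 UMIs, a ratio of -1.71 (-2.01 to -1.42), and Myd88, Irf3 and Tbk1 were at -0.41, -0.34 and 0.06.

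Of 9 genes that restrain the pathway, none was called in basal cells, beside 6.56% lower and 6.08% higher among all genes. In luminal secretory cells 3 were lower, beside 18.2% of all genes. Socs3, an inhibitor of JAK signalling, had 12104 and 9778 UMIs and a ratio of -0.39 (-0.43 to -0.35) in basal and one of -1.19 (-1.36 to -1.03) in luminal secretory cells. Irf2 was at -0.03 and 0.24, and Ptpn11 at 0.14 and 0.34.

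Of 50 interferon-stimulated genes outside the 42, 30 were measured in basal cells. In that class 7 were lower, beside 6.56% of all genes, and none was higher, with a median of -0.21. The 4 with the most UMIs were within 1.5-fold: Ifitm2 at 0.14, Cxcl10 at 0.09, Rnf213 at -0.18 and Pnpt1 at -0.23. The luminal secretory cells had 25 measured, 6 lower and 3 higher, beside 18.2% and 15% of all genes, with a median of -0.13. There Isg20, an RNA-degrading enzyme, gave 141 and 920 UMIs and a ratio of -2.42 (-2.69 to -2.16), Iigp1, an immunity-related GTPase, one of -1.87 (-2.10 to -1.65) and Plscr1 one of -0.96 (-1.09 to -0.84), with Ifitm2 at 0.34.

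The members were also set out by promoter match, without a test. A window without a match does not show that the gene lacks an element. In basal cells the 12 measured members with a response element match had a median of -0.47 and 4 were lower. The 15 with a window but no match had a median of -0.55 and 5 were lower. Of all measured basal genes 6.56% were lower. Measured members without a window, Usp18, Mx2 and Zbp1 among them, are in neither group. The luminal secretory medians were -0.42 for 12 and -0.27 for 13 members, with 4 lower in each, beside 18.2% of all genes. Among the sequences printed above, Ifit1, Isg15 and Oas1a belong to members 1.5-fold lower in basal cells, Bst2, Gbp2 and Gbp7 to members within 1.5-fold, and Rsad2, Ifit3 and Ifit3b to members under the minimum.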

How the data were processed

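The deposited files hold UMI counts per gene and barcode, 1 matrix per library, with 40066795 and 48720938 UMIs over 7275 knockout and 11258 wild type barcodes. The submitters' processing notes name GRCm38 and Seurat 4.0.4, with a counting program not given in the sources used here. Rows without a symbol (1.74% and 1.36% of UMIs) were left out of all totals. The libraries shared 25 barcodes.

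Cells with at least 500 genes, 1000 UMIs and at most 20% mitochondrial UMIs were kept. Scrublet's own threshold marked 1 of 6559 knockout cells and so did not work there; the wild type threshold, used for both, removed 38 and 123 cells. Clustering used scanpy 1.11.5 and leidenalg 0.10.2 (2000 variable genes, 30 components, resolution 1). UMIs were summed per class and library. Ratios have exact conditional, levels exact Poisson and shares exact Clopper-Pearson intervals at 95%; a count of 0 allows 3 UMIs. The steps were tested on simulated counts. Alternatives covered scaling, gene minimum, weight of cells, free RNA, filters, doublets, clustering, thinning and fold.

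Named are, per class, the 8 members with the most UMIs and all 1.5-fold members whose interval leaves out 0, and up to 4 genes per pathway list, those with the most UMIs; members shown for contrast were added with values in view. The members and all lists were chosen with earlier results of these data known. A result on 1 gene of the kinase and STAT list is not reported here.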

Additional observations from a re-analysis of the deposited data

Results flagged for a closer look

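Zbp1 differed between cell classes: its log2 ratio was 0.69 in basal and -0.68 in luminal secretory cells, a difference of 1.37, with counting intervals on opposite sides of 0. The difference was not tested, since there is 1 library per genotype. In plain CPM the luminal ratio was 0.18, so the opposite direction depends on the scaling. Basal cells gave 94 and 36 UMIs and luminal secretory cells 46 and 90.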

How the results depend on the processing

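No paired analysis was possible because each genotype has 1 library, and for the same reason no replicate could be left out. In luminal secretory cells the median ratio of -0.28 became 0.58 in plain CPM and 0.020 outside milk genes. The count of 9 lower members there became 1 in plain CPM, 3 outside milk genes, 14 with equal weight per cell, 5 at a minimum of 200 UMIs and 2 at 2-fold. The count of 1 higher member became 15 in plain CPM, 2 outside milk genes, with equal weight per cell, with free RNA subtracted, with at least 2000 UMIs per cell and at a minimum of 20 UMIs, and 0 with doublets kept and at 2-fold. In plain CPM the luminal ratios of Irf1 (0.16), Zbp1 (0.18), Trim25 (0.093), Gbp3 (0.12) and Eif2ak2 (0.16) turned positive. In basal cells the ratio was 0.072 for the summed UMIs of all members, most of them Ifitm3; the count of 11 lower members became 4 at a minimum of 200 UMIs, with 23 members measured, and the 1 higher member became 0 there and at 2-fold. Under the other alternatives the basal median ran from -0.52 to -0.40 and the lower count from 8 to 14. The 12 named basal members stayed within their counting intervals in all 120 values from 10 alternatives; of 90 values of the 9 named luminal members 71 did, 14 moved and 5 reversed. Ratios within clusters, the contrast of basal with luminal cells outside milk genes and the shares of cells with 5 or more members without the 4 most abundant were added after seeing the data; within luminal cluster 3 the summed ratio of -0.42 reversed to 0.59. Where no value above shows the cause of a change, the cause was not tested. The hormone-sensing and non-epithelial classes have few cells, 145 and 125 and 68 and 181, which leaves 7 and 23 members measured.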

Other observations

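Interferon epsilon (Ifne), an interferon of epithelia, was chosen after its values were seen. It gave 23 UMIs, each in a cell of its own, among 2550 wild type luminal secretory cells and none among 810 knockout cells. Against the 3 UMIs that a count of 0 allows over the class, the observed wild type level was 3.45-fold higher in plain CPM and 6.30-fold higher in scaled CPM. These folds leave out the counting error of the 23 UMIs. With it, the upper limit of the log2 ratio relative to all genes was -2.24. No UMI of it was seen in basal or hormone-sensing cells of either library, and 1 was seen in wild type non-epithelial cells.

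Among the epithelial classes, hormone-sensing cells had a level of Stat2 (45.0 CPM in knockout, 47.1 CPM in wild type) above that of basal cells (17.4 and 27.2 CPM) and luminal secretory cells (5.72 and 6.68 CPM), and near that of non-epithelial cells (39.9 and 47.3 CPM). Of Samd9l the same cells held 1 UMI, in the wild type library.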
